A study of Mus musculus with 2 samples.

Results

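Aminoacyl-tRNA synthetases and their scaffold proteins were read in DN3 thymocytes of Miz-1 knockout and wild-type mice. The set was chosen by gene name: every probe set annotated to a single synthetase symbol, with Farsa, Farsb and Eprs and with the scaffold genes Aimp1, Aimp2 and Eef1e1. It held 38 of the 18193 genes with a named probe set, read by 76 probe sets: 19 genes of cytosolic enzymes, 16 of mitochondrial enzymes and 3 of scaffold proteins.

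A synthetase joins an amino acid to its tRNA, so that the ribosome places it where the codon calls for it. Cytosol and mitochondria mostly use enzymes from separate nuclear genes, and the gene of the mitochondrial enzyme carries the ending 2. Gars and Kars are known to supply both compartments, and Eprs joins the glutamyl and prolyl enzymes in 1 protein. Several cytosolic enzymes sit with Aimp1, Aimp2 and Eef1e1 in the multisynthetase complex. In dividing cells these genes are known to follow growth signals such as MYC, and in cells short of amino acids many cytosolic ones are known to be induced by ATF4, a factor that with C/EBP partners binds a composite element.

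The cells were Lin-, CD44-, CD25+ thymocytes, T cell precursors at the stage of beta-selection, and the mice had the C57BL/6 background. The factor Miz-1 is the zinc finger transcription factor encoded by Zbtb17, and the knockout mice carry the Miz1-delta-POZ allele, named for loss of the POZ domain through which such factors bind partners. The comparison asks how loss of Miz-1 function changes the DN3 expression pattern. The labels used here state no Cre line, age or pooling. There was 1 array for each genotype, so no value has an error between animals, no difference could be tested, and sizes below describe these 2 arrays.

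Signal below 394, the median of all values on both arrays, was treated as a floor: values under it were raised to it, and a gene was called measured if the mean of its brightest probe set lay above it. Of all genes 10770 were measured, and 608 of these (5.65%) were at least 2-fold lower and 779 (7.23%) at least 2-fold higher in the knockout. Log2 ratios are of knockout over wild type, so negative values are lower in the knockout. Where several measured probe sets read 1 gene, their log2 ratios differed with an SD of 0.57 (root mean square, 4514 genes), and of 0.36 over the 18 synthetase and scaffold genes with more than 1. All 9 DN3 markers with a probe set were measured, and they summed to 248476 in the knockout against 173443, with Il2ra, the gene of the CD25 used in the sort, at 23018 against 4992 and Rag1 at 34741 against 45865. Of 5 markers outside the gate 2 were measured, Kit (825 against 749) and Cd8a (541 against 497), and Cd44, Cd4 and Cd8b1 had mean signals below the floor, Cd8b1 with 679 in the wild type. Myeloid markers summed to 4733 against 2242, knockout first as in every such statement here (3 of 5 measured). Lyz2 read 2646 against 736, Csf1r 1204 against 529 and Adgre1 482 against 498, and Itgam and Mpo were below the floor on both arrays. B cell markers summed to 1452 and 883 (2 of 3), with Cd79a at 676 against 326, Ms4a1 at 652 against 449 and Pax5 below the floor on both. Stromal markers summed to 6883 and 4237 (3 of 6). Most of the stromal sum was Epcam (4947 against 2604). Col1a1 read 634 against 274 and Krt5 756 against 863, and Krt8 and Foxn1 were below the floor on both arrays. Zbtb17 read 1361 against 3042 by its brighter probe set and 610 against 47.6, the opposite direction, by its other, dimmer one. Where these probes lie relative to the deleted part is not stated in the labels, so they do not check the genotype. Xist read 55300.0 against 423, so sex and genotype cannot be told apart. This holds for the 38 genes too, 0 of which lie on a sex chromosome. The part of these cells and of sex in the values below was not tested.

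Promoters of the members were searched for control elements known from growth and amino acid responses. RefSeq promoter windows (GRCm38.p6) were found for 29 of the 38 genes, 12 of them cytosolic and 14 mitochondrial, and the 250 bases before the annotated start were searched on both strands. The MYC/MAX E-box CACGTG stood in 3 of 12 cytosolic, 0 of 14 mitochondrial and 0 of 3 scaffold promoters, against 6.05% of all 27025 promoters. The core of the C/EBP-ATF composite element, TGATGNAA, stood in 3 of 12 cytosolic, 0 of 14 mitochondrial and 0 of 3 scaffold promoters, against 3.53% of all. No E-box or composite match overlapped another. The full cAMP response element TGACGTCA was in 0 of the 29, against 1.62% of all. The 5 promoters with a match are shown 5′ to 3′ on the strand of the gene, with the matches in capitals (CACGTG in Aars, Farsb and Iars; the composite core, here on the opposite strand, in Aars, Gars and Tars).
Aars (chr8:111033592-111033841, plus strand): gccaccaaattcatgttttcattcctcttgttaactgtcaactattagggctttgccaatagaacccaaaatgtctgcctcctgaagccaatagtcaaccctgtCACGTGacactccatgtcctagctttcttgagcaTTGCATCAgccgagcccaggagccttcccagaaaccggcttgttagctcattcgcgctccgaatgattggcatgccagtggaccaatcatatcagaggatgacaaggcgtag
Gars (chr6:55037751-55038000, plus strand): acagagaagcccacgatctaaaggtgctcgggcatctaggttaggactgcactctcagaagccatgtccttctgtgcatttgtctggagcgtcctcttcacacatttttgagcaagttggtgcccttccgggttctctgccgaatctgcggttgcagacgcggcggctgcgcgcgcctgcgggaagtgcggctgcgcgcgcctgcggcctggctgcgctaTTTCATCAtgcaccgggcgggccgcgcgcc
Tars (chr15:11399659-11399908, minus strand): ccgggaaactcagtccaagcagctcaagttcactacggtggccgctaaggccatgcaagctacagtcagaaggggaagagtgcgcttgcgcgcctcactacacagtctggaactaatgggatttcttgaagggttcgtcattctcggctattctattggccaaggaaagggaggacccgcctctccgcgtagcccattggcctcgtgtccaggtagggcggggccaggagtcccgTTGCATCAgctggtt
Iars (chr13:49681880-49682129, plus strand): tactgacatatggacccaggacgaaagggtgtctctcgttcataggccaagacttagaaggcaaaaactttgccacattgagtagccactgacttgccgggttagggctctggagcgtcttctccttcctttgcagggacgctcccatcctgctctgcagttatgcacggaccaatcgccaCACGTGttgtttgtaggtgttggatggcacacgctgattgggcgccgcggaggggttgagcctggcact
Farsb (chr1:78488898-78489147, minus strand): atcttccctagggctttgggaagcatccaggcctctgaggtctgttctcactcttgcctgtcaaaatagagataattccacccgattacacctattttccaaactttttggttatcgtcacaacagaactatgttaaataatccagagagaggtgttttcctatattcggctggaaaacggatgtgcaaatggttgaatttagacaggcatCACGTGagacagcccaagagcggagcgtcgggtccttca
In Aars both elements lie close together, their first bases 146 and 112 bases before the start. In Tars the composite core begins 15 bases and in Gars 30 bases before it, and the E-box begins 69 bases before the start of Iars and 39 before that of Farsb. A match is only a description of the letters in this window.

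Cytosolic synthetase genes were mostly lower in the knockout, each by less than 2-fold by its brightest probe set. All 19 were measured, and 17 of them had a log2 ratio below 0. None, 0 of 19, was 2-fold lower or higher, against 5.65% and 7.23% of all measured genes. Over all measured genes 50% had a ratio below 0 and the median was 0.00, whereas the median of the 19 cytosolic genes was -0.51, with a range from -0.96 to 0.08. Scaled by quantile normalization their median was -0.46 and by loess -0.42, with 18 of 19 below 0, against 52.6% and 50.8% of all measured genes.

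Hars, which charges histidine tRNA, had the lowest ratio of the group by brightest probe sets in the deposited values. The brighter of its probe sets gave 13279 for the knockout against 25757 for the wild type, 1.94-fold lower (log2 ratio -0.96), and its second probe set gave -0.57. Gars, the glycyl enzyme of both compartments, read 3695 against 6451, 1.75-fold lower (-0.80), by its only probe set. Vars, the valyl enzyme, read 2831 against 4784, 1.69-fold lower (-0.76). These 3 genes were lower in the knockout by each of their measured probe sets. Their rank depends on the processing: under loess Vars (-0.71) and Gars (-0.70) lay below Hars (-0.59), under quantile normalization Gars (-0.75) and Vars (-0.73) lay below Hars (-0.67), and with the mean of probe sets Nars was lowest (-0.89).

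A broad middle of the group lay between log2 ratios of -0.64 and -0.43. Kars, the lysyl enzyme of both compartments, read 7157 against 11166 (-0.64), and Iars, for isoleucine, 5828 against 8959 (-0.62). Tars, for threonine, read 3805 against 5679 (-0.58), and Yars, for tyrosine, 2187 against 3216 (-0.56). By this choice of range the wild-type array was the brighter for every gene. Lars, for leucine, read 3037 against 4346 (-0.52), Mars1, which charges both the initiator and the elongator methionine tRNA, 6177 against 8833 (-0.52), and Nars, for asparagine, 3809 against 5442 (-0.51). The second Nars probe set read 2469 against 5939, 2.41-fold lower (-1.27), the only measured probe set of the 62 in the set past 2-fold, where 5.68% of all measured probe sets of named genes were at least 2-fold lower and 7.76% at least 2-fold higher. Sars, for serine and also the enzyme behind selenocysteine tRNA, read 6641 against 9248 (-0.48).

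The phenylalanyl enzyme is built of subunits encoded by Farsa and Farsb, and their brightest probe sets gave like ratios. Farsa read 1784 against 2448 (-0.46) and Farsb 3867 against 5215 (-0.43). The other Farsb probe sets gave -0.29 and -0.09, on the same side, but the 3 dimmer Farsa probe sets gave -0.06, 0.35 and 0.00. The Farsa value therefore rests on 1 of its 4 probe sets.

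At the other end of the cytosolic group stood the 6 genes nearest 0. Eprs read 5027 against 6033 (-0.26), Aars, for alanine, 1390 against 1570 (-0.18), Rars, for arginine, 4458 against 4882 (-0.13) and Cars, for cysteine, 1083 against 1178 (-0.12). Other measured probe sets of Eprs reached -0.56 and that of Aars -0.55, so these genes were lower by all their measured probe sets.

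Wars and Qars were the only cytosolic genes not below 0 in the deposited values. Wars, the tryptophanyl enzyme and a gene known to be induced by interferon, read 1792 against 1789 (0.00). Its other probe sets gave 0.08, 0.25 and 0.88 (724 against 366, the latter under the floor), none below 0. Its brightest value turned to -0.07 under quantile and -0.06 under loess normalization, and below 0 with median centring too. Qars, the glutaminyl enzyme, read 5773 against 5456 (0.08) by its brightest probe set, whereas the next in brightness read 3026 against 4709 (-0.64), another gave -0.77 and the dimmest 0.24. With the mean of its probe sets Qars was at -0.27, so its direction depends on the probe set.

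**Figure D1:**
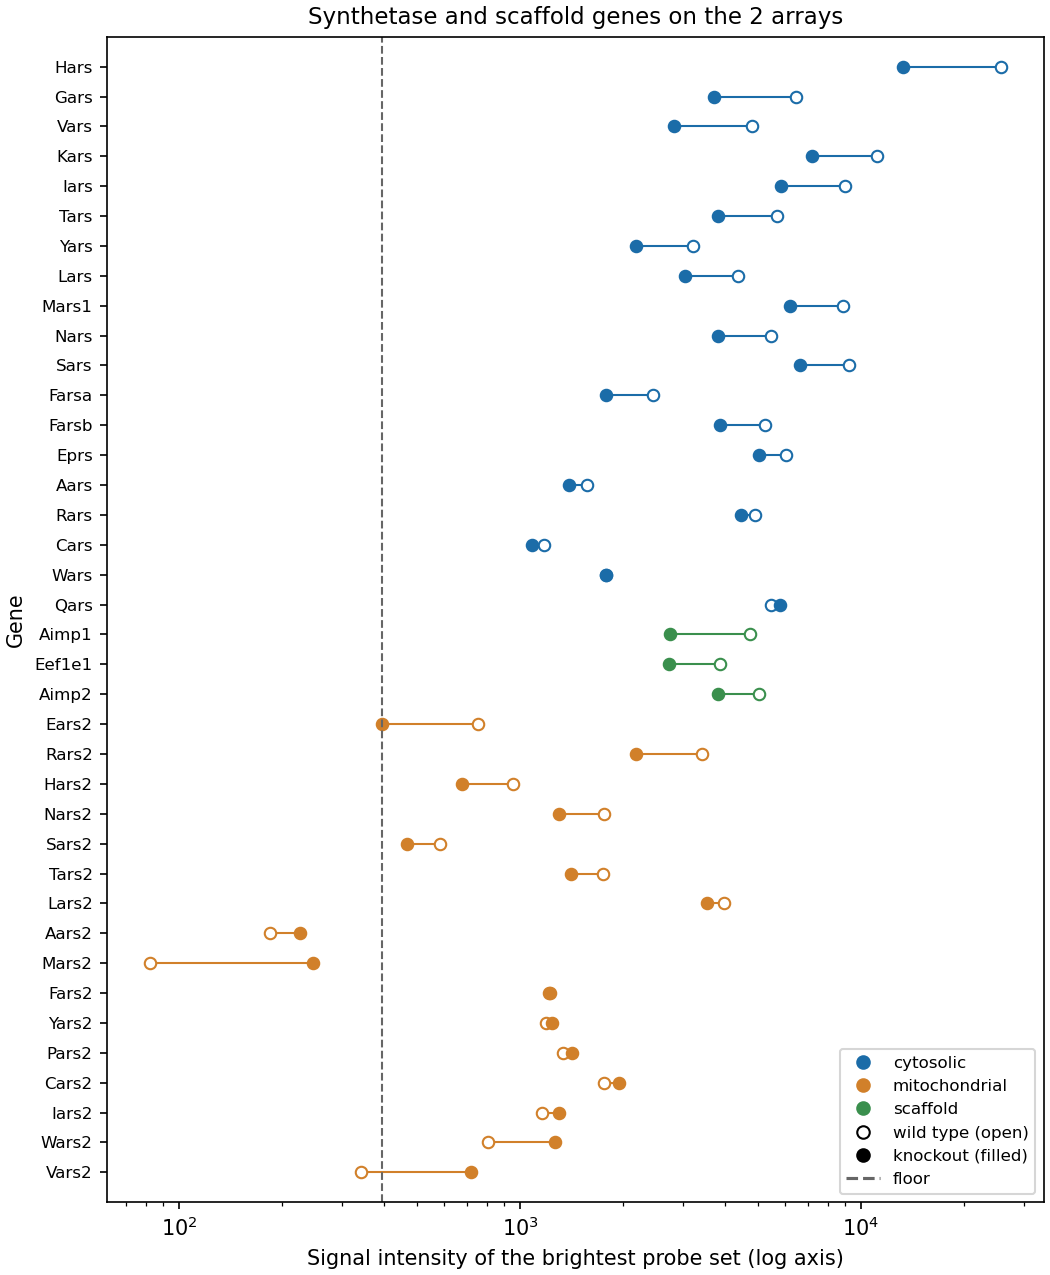
Signal of the brightest probe set of each of the 38 genes (x axis, log scale, signal intensity) in the wild type (open) and the knockout (filled), with the floor of 394 as a dashed line; colours mark compartment and genes are ordered by log2 ratio. The open point lies to the right for 17 of 19 cytosolic genes and all 3 scaffold genes, while the mitochondrial genes show both orders.

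The scaffold genes of the multisynthetase complex lay with the cytosolic enzymes. Aimp1, which is also the precursor of a secreted cytokine, read 2754 against 4738, 1.72-fold lower (-0.78). Eef1e1, also called AIMP3, read 2730 against 3848 (-0.50). Aimp2 read 3819 against 5035 (-0.40) by its brighter and 2319 against 3734 (-0.69) by its other probe set. All 4 probe sets of the 3 genes were lower in the knockout, with a gene median of -0.50. The 7 enzymes of the complex with a probe set and these scaffold genes together had a median of -0.51, and 9 of the 10 were below 0, Qars being the other. Of all measured genes 50% were below 0. In the brightness range of these 10 genes the share was 54.6% at 8 to 16 and 64.2% at 16 to 32 times the floor.

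Mitochondrial synthetase genes showed no common direction in the deposited values. Of 16 genes 14 were measured, 7 of them below and 7 above 0, with a median of -0.08 and a range from -0.94 to 0.86. None was 2-fold lower or higher in the deposited values, against 5.65% and 7.23% of all measured genes. The difference of medians, cytosolic minus mitochondrial, was -0.44. Under quantile normalization and under loess 10 of the 14 were below 0 (medians -0.12 and -0.10), against 52.6% and 50.8% of all measured genes. With the mean of probe sets 9 of the 14 were, against 48.5%. The mitochondrial median was 0.083 without probe sets of shared sequence, -0.19 with the mean of probe sets and -0.24 in the 4 genes of at least 4 times the floor. Aars2 (226 against 185) and Mars2 (247 against 82.2) had mean signals below the floor.

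Ears2 and Rars2 were the lowest of the mitochondrial enzymes in the deposited values. Ears2, the mitochondrial glutamyl enzyme, read 394 (just under the floor) against 754, at least 1.91-fold lower (-0.94). Under quantile and loess normalization it passed 2-fold, at least 2.01-fold and 2.15-fold lower. Its other 3 probe sets had means below the floor, 1 of them at 437 against 79.9. Rars2, for arginine, read 2194 against 3408, 1.55-fold lower (-0.64), by its only probe set. Hars2, for histidine, read 677 against 952 (-0.49), but its second probe set read 574 against 502 (0.19).

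Between these and 0 lay Nars2, Tars2, Sars2 and Lars2. Nars2 read 1304 against 1763 (-0.43), Sars2 467 against 584 (-0.32) and Tars2 1407 against 1747 (-0.31). The second Tars2 probe set was lower still, at -0.81. Lars2, for leucine, read 3545 against 3965 (-0.16). A much dimmer second Lars2 probe set read 124, under the floor, against 730, at least 1.85-fold lower (-0.89). These 4 genes thus lay below 0 by every measured probe set.

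Vars2 and Wars2 stood highest. Vars2, the mitochondrial valyl enzyme, read 717 against 341, the latter under the floor, at least 1.82-fold higher (0.86). Wars2, for tryptophan, read 1270 against 808, 1.57-fold higher (0.65), with its second probe set at 612 against 593 (0.05). Both were dim, with means of 1.34 and 2.64 times the floor.

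The remaining mitochondrial genes lay near 0 by their brightest probe sets. Iars2 read 1303 against 1162 (0.16), although a second probe set read 273, under the floor, against 608 (-0.62). Cars2 read 1955 against 1762 (0.15), with -0.19 by another probe set. Pars2 read 1420 against 1341 (0.08), Yars2 1239 against 1196 (0.05) and Fars2 1222 against 1213 (0.01). The second measured Yars2 probe set read 550.3 against 359, the latter under the floor (0.48), and the mean of both was 0.27. Ratios this close to 0 had no settled sign: Pars2, Yars2 and Fars2 turned below 0 under quantile and loess normalization (Fars2 with median centring too), and Iars2 (-0.23) and Cars2 (-0.02) did with the mean of probe sets.

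**Figure D2:**
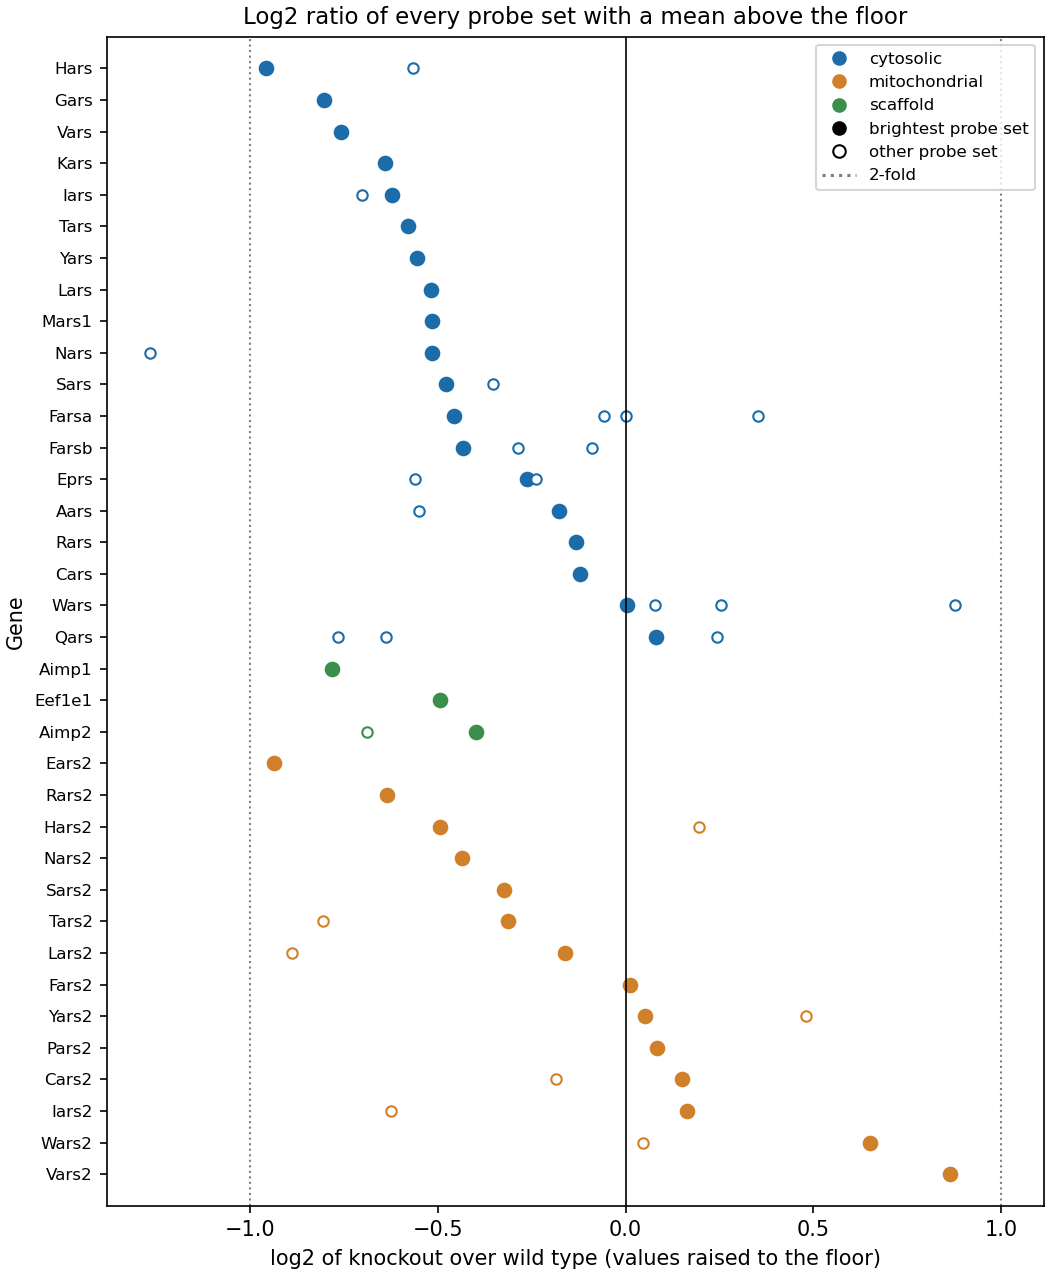
Log2 of knockout over wild type (x axis) for each of the 62 measured probe sets, by gene; filled points are the brightest probe set of a gene, open points the others, dotted lines 2-fold. In all 29 of 37 cytosolic, 4 of 4 scaffold and 11 of 21 mitochondrial probe sets lie below 0, and 1 Nars probe set lies beyond the 2-fold line.

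Over probe sets rather than genes the cytosolic enzymes again had a lower median than the mitochondrial ones, and the scaffold genes the lowest (-0.59). Of 37 measured cytosolic probe sets 29 had a log2 ratio below 0 (median -0.46), as had 11 of 21 mitochondrial ones (median -0.16), against 48.7% of the measured probe sets of all named genes. Probe sets of 1 gene share their RNA and are not independent.

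Enzymes for the same amino acid were then set side by side. With Farsa and Farsb each compared with Fars2 and Eprs with both Ears2 and Pars2, 15 comparisons had measured genes on both sides. The cytosolic gene had the lower ratio in 13 of them, and the median difference, cytosolic minus mitochondrial, was -0.36. In the deposited values the gap was widest for valine, where Vars was at -0.76 and Vars2 at 0.86, followed by isoleucine with Iars at -0.62 and Iars2 at 0.16. For tryptophan both values lay higher, Wars at 0.00 and Wars2 at 0.65. Arginine and glutamate ran the other way, with Rars at -0.13 and Rars2 at -0.64, and Eprs at -0.26 and Ears2 at -0.94. The cytosolic gene was lower in 11 of 15 comparisons under quantile normalization (median difference -0.28) and in 10 of 15 under loess (-0.26). With the mean of all measured probe sets it was lower in 12 of 15 and the median difference was -0.10, so the tally and the size of the gap depend on the scaling and on how probe sets are combined.

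**Figure D3:**
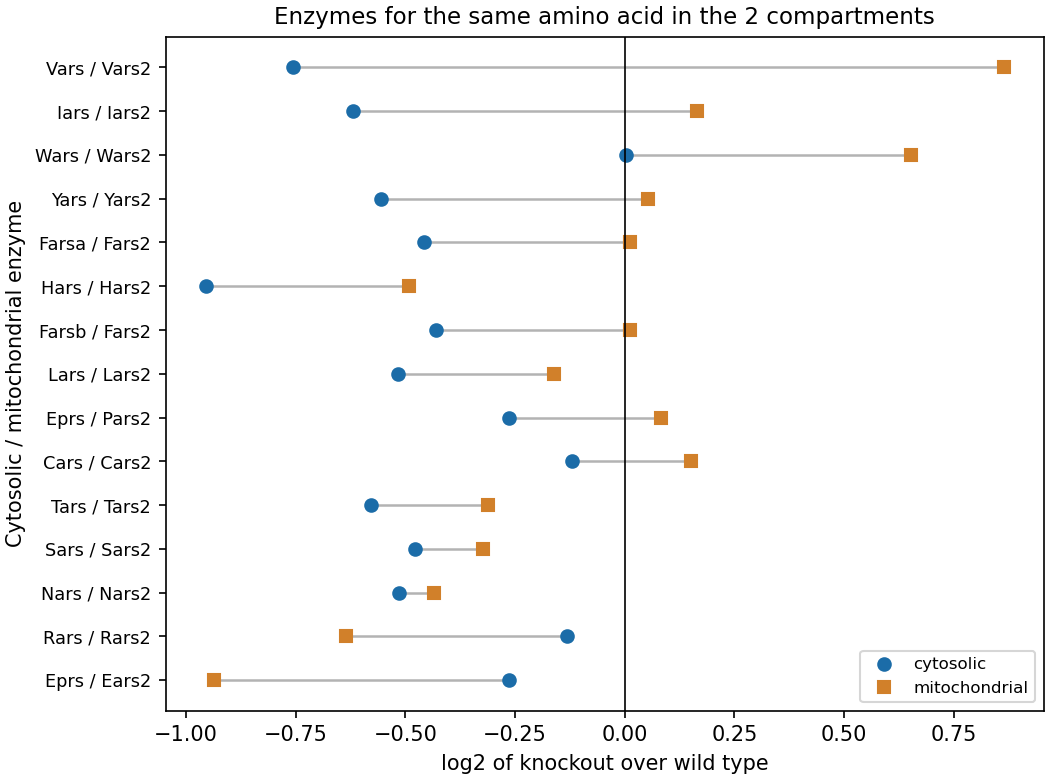
Log2 of knockout over wild type (x axis) of the cytosolic (circles) and the mitochondrial enzyme (squares) for the same amino acid, 1 line for each of 15 comparisons, ordered by their difference. The circle lies to the left in 13 comparisons and to the right for Rars with Rars2 and Eprs with Ears2.

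The compartments also differed in brightness, and brighter probe sets on these arrays leaned lower in the knockout. Mean signal ran from 1130 to 19518 for the cytosolic genes (median 4670) and from 525 to 3755 for the measured mitochondrial genes (median 1225). Over all measured genes the median log2 ratio was 0.11 at 1 to 2 times the floor, 0.02 at 4 to 8 times, -0.07 at 8 to 16 times, -0.20 at 16 to 32 times and -0.45 above that. Within the band of 8 to 16 times the floor, 9 cytosolic genes had a median of -0.51, and 8 of them were below 0, as were 54.6% of the 1538 genes there. In the band of 16 to 32 times, the 4 cytosolic genes had a median of -0.57. Hars, the only member above 32 times the floor, lay at -0.96 where 76.9% of genes were below 0. Of the 19 cytosolic genes, 18 (all but Qars) lay below the median of all genes in their own band, as did 9 of 14 mitochondrial and 3 of 3 scaffold genes. Wars did so only just, at 0.003 against 0.018, and its dimmer probe sets gave 0.08, 0.25 and 0.88. In the band that holds 3 genes of each compartment, 4 to 8 times the floor, the cytosolic median was -0.46 and the mitochondrial -0.31. Between 2 and 4 times, 2 cytosolic genes had a median of -0.15 and 7 mitochondrial genes one of 0.05.

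**Figure D4:**
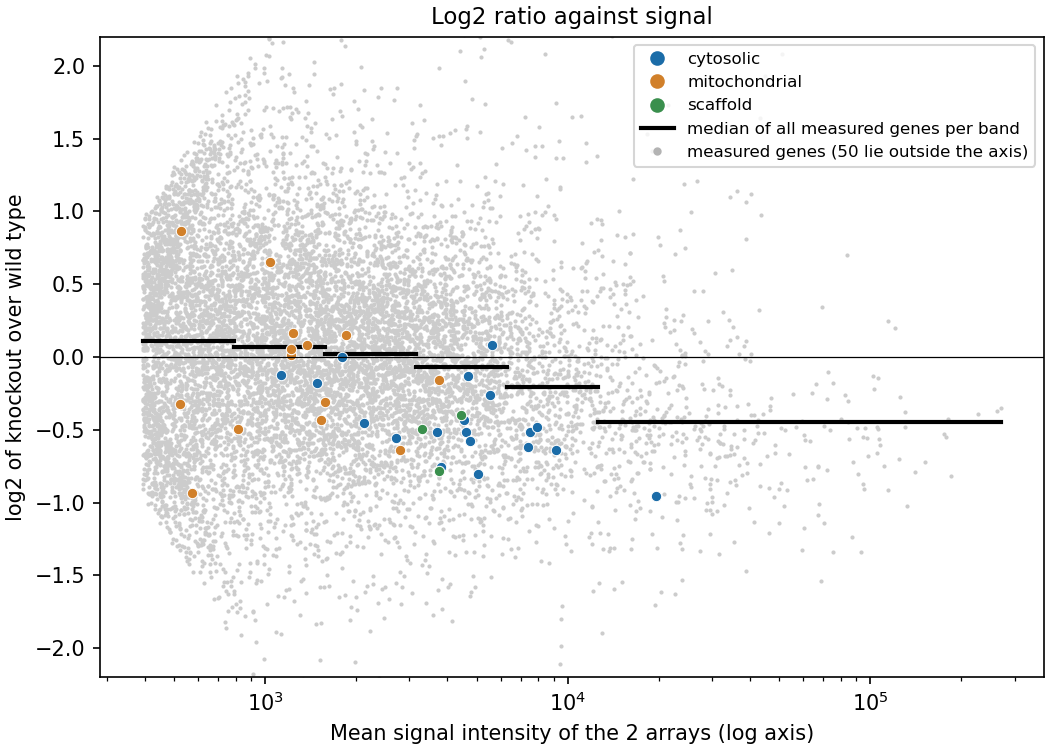
Log2 of knockout over wild type (y axis) against mean signal of both arrays (x axis, log scale) for all 10770 measured genes (grey), with the median of each brightness band as a black bar and the members in colour; 50 genes lie outside the y axis. The band medians decline from 0.11 to -0.45, and 18 of 19 cytosolic genes lie below the bar of their band, Wars only just.

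The ratios were next grouped by enzyme class. Class I and class II synthetases differ in the fold of the catalytic domain and in the hydroxyl of the tRNA they charge. Among cytosolic enzymes the 10 class I genes had a median of -0.39 and the 9 class II genes one of -0.51. Eprs was counted in class I by its glutamyl part, although its prolyl part is class II. Of these class I genes 8 and of the class II genes 9 were below 0, against 50% of all measured genes. With the mitochondrial enzymes included, the medians were -0.15 for 18 class I and -0.46 for 15 class II genes. The class I median was -0.31 with the mean of probe sets and -0.39 in genes of at least 4 times the floor.

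Cytosolic synthetases reported as ATF4 targets were then read beside other ATF4-responsive genes. The 13 reported ones had a median of -0.52 and 12 were below 0. The other 6 cytosolic genes had a median of -0.44 (-0.13 without probe sets of shared sequence) and 5 were below 0. Of all measured genes 50% were below 0. Atf4 itself read 6827 against 6740 (0.02). Asns, the asparagine synthetase that ATF4 induces, read 452 against 700, 1.55-fold lower (-0.63). Of 28 measured ATF4 targets outside the synthetases, 5 were at least 2-fold lower and 4 were higher by as much, where 5.65% and 7.23% of all measured genes were. The median was 0.02. The lowest were Shmt2, the mitochondrial serine hydroxymethyltransferase, at 2901 against 8286, 2.86-fold lower (-1.51), and the transcription factor gene Cebpb at 747 against 1957, 2.62-fold lower (-1.39). The highest were Ppp1r15a, which helps remove the phosphate from eIF2, at 1254 against 411, 3.05-fold higher (1.61), and Herpud1, of the endoplasmic reticulum, at 2163 against 810 (1.42). For Herpud1 a second probe set gave -0.64, and of 4 Shmt2 probe sets 2 gave 0.28 and 0.15. The list's median was -0.33 with the lower quartile as floor and -0.52 in the 12 genes of at least 4 times the floor.

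Genes acting before and after charging were read next. Of 18 measured genes of tRNA maturation 14 were below 0, against 50% of all measured genes, and 0 passed 2-fold, against 5.65% lower and 7.23% higher. Their median was -0.19. The lowest were the RNase P subunit genes Rpp21 (1357 against 2423, -0.84) and Rpp30 (1535 against 2715, -0.82), followed by Rtcb, the tRNA ligase (3956 against 6432, -0.70). Trnt1, which adds the CCA end that a synthetase charges, read 1115 against 1557 (-0.48), and the tRNA exporter Xpot 5272 against 5890 (-0.16). Among 4 elongation factor genes, all measured and all below 0, the median was -0.52. Eef1a1, which carries charged tRNA to the ribosome, read 229129 against 296909 (-0.37), and its exchange factor subunit Eef1b2 25291 against 46616 (-0.88). Elongation factor genes are very bright, in the band where the median of all genes was -0.45.

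**Figure D5:**
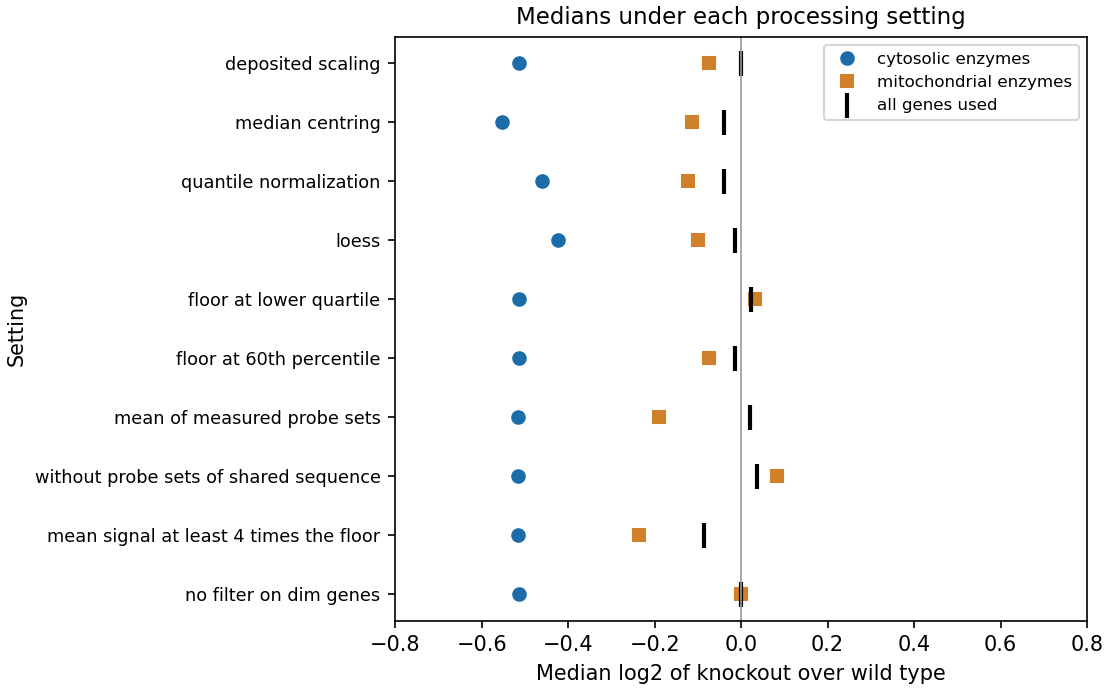
Median log2 of knockout over wild type (x axis) of the cytosolic (circles) and mitochondrial enzymes (squares) and of all genes used (bars) under each of 10 settings. The cytosolic median stays between -0.55 and -0.42, and the mitochondrial median between -0.24 and 0.08.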

How the data were processed

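Total RNA of the sorted thymocytes was labelled with biotin and hybridised to 1-colour oligonucleotide arrays, per the labels' protocols. The deposited values are signal intensities on a linear scale, 1 for each of 45101 probe sets and array (64 are controls), made with GCOS 1.4 per the submitters' processing notes, its settings unstated there. The platform annotation supplied the names: 34958 have 1 symbol (34754 matched by identifier to the RefSeq table of GRCm38.p6), 932 have several and 9160 non-control ones stayed unnamed.

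Values were raised to the floor (median of non-control values), and log2 of knockout over wild type was taken for the probe set of highest mean signal (Python 3.11.15, pandas 2.3.3). With 1 array a group there is no test and the number of arrays limits the precision. The code was tested on simulated data. Members, lists and rules were chosen with earlier results of these data known. All 38 member genes are named, with up to 2 of the highest and 2 of the lowest past 2-fold of other lists, Atf4, Asns and Zbtb17. Other examples from those lists were picked with their values in view. Alternatives were median centring, quantile and loess (span 0.3) scaling, floors at the lower quartile (119) and 60th percentile (550.1), the mean of probe sets, no shared-sequence probe sets (IDs ending in _s_at, _x_at or _a_at), a filter at 4 times the floor, and none. The ending _a_at marks sequence shared by transcripts of 1 gene. The shared-sequence setting therefore also drops probe sets of a single gene, such as the brightest of Hars and Farsa, and its values are not an effect of sharing between genes alone.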

Additional observations from a re-analysis of the deposited data

How the results depend on the processing

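Across 9 alternatives the median of the cytosolic synthetases kept its direction and lay between -0.55 and -0.42, that of the scaffold genes between -0.69 and -0.47, and the cytosolic minus mitochondrial difference of medians between -0.60 and -0.28. Of 135 comparisons of a value with its alternative, 123 moved by less than the probe set SD within a gene over the root of the number of genes, or for counts by at most 1.5 times. Some of these could not move: median centring shifts every ratio alike and so leaves both differences unchanged. The cytosolic, scaffold and complex medians were the same at either floor and without the filter. The SD used was that of all genes (0.57), not that of the members (0.36). The count is therefore no measure of robustness. The 12 comparisons that moved by more were as follows, and the cause was not tested. In genes of at least 4 times the floor, the medians were -0.24 for mitochondrial enzymes (4 genes), -0.39 for class I, -0.57 for charging accessory genes and -0.52 for other ATF4 targets, fewer genes being used. Without shared-sequence probe sets, the medians were 0.083 for mitochondrial enzymes and -0.13 for the cytosolic ones not reported as ATF4 targets. With the mean of probe sets, class I was at -0.31 and the difference within an amino acid at -0.10. With the floor at the lower quartile, other ATF4 targets were at -0.33. At that floor 2 of 38 members, Vars2 and Mars2, were at least 2-fold higher, against 2682 of all 16038 measured genes. Under quantile and under loess 1 of 36 members, Ears2, was at least 2-fold lower. Of all measured genes 695 of 10777 were under quantile and 743 of 10770 under loess. No paired analysis was possible because each genotype has 1 array. Genes near the floor, most of them mitochondrial here, are limited by signal over background, since a value raised to the floor pulls a ratio toward 0. Among the brightest probe sets of measured members only Ears2 (-0.94) and Vars2 (0.86) had a value raised to the floor. Whether background pulls the other mitochondrial ratios toward 0 was not tested.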

Other observations

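Of 10 measured genes of accessory steps of charging, 8 were below 0, against 50% of all measured genes, and 0 passed 2-fold, against 5.65% lower and 7.23% higher. Their median was -0.24. Mammalian mitochondria make their glutaminyl-tRNA by amidation of a mischarged precursor, and the subunit genes of that amidotransferase were all lower in the knockout than in the wild type: Gatb read 471 against 810 (-0.78), Gatc 1659 against 2650 (-0.68) and Qrsl1 2006 against 2760 (-0.46). Ears2, whose enzyme makes that precursor, was the lowest mitochondrial synthetase in the deposited values (-0.94). That value rests on 1 of its 4 probe sets, with the knockout just under the floor, and a dimmer one read 437 against 79.9. The Gatb values were also near the floor, and Mtfmt of the same list read 862 against 759 (0.18). Aarsd1, an editing protein for mischarged alanyl-tRNA, read 1583 against 2703 (-0.77), and the highest of the list was Sepsecs, which completes selenocysteinyl-tRNA, at 911 against 664 (0.46). These genes were picked out after their values were seen, and with 1 array for each genotype their difference was not tested.

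A probe set annotated to both Aars and Exosc6, left out for its shared name, read 4487 against 5305 (-0.24).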
